A study of Mus musculus with 6 samples.

Results

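Cells slow protein synthesis under stress by phosphorylating the alpha subunit of the initiation factor eIF2. The 8 genes described here encode the machinery of that switch, and they are the rows of the deposited expression table, of 15118 genes in all, whose symbol is Eif2ak1, Eif2ak2, Eif2ak3, Eif2ak4, Ppp1r15a, Ppp1r15b, Eif2s1 or Eif2b5. Each symbol had a single row, and all 8 had a value high enough in every heart to be tested. The rule names the genes and uses no measured value, but the set was proposed with earlier results of these data known.

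The samples were whole embryonic hearts of Black-Swiss mice at E12.5 (days after mating), 1 RNA-seq library per heart. The 3 Hif1a mutant hearts (hearts 5, 8 and 10) had the genotype Hif1a Null/flox and the 3 control hearts (hearts 2, 5 and 9) the genotype Hif1a WT/flox. Every embryo, controls included, also carried NKX2-5 Cre/WT, a Cre recombinase in the Nkx2-5 gene that recombines floxed alleles in cardiac progenitors and heart muscle. Cells of the heart without Cre activity therefore keep the floxed allele intact in both genotypes, and they carry 1 further functional allele in control hearts and a null allele in mutant hearts. The labels name separate hearts but give no litter or day, and the p-values below cover the spread among these 6 hearts only.

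Levels are RPKM, reads per kilobase of the gene's exons scaled to the reads of the library, so they can be compared between genes. Log2 changes are mutant minus control on log2(RPKM + 1), a scale that understates the change of low genes. Tests are limma fits across 13080 genes with Benjamini-Hochberg adjustment over all of them and a threshold of 0.05.

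Eif2s1 encodes eIF2alpha, the subunit that is phosphorylated. Its kinases are Eif2ak1 (HRI, which senses low haem and mitochondrial stress), Eif2ak2 (PKR, which senses double-stranded RNA), Eif2ak3 (PERK, in the membrane of the endoplasmic reticulum) and Eif2ak4 (GCN2, which senses amino acid shortage). Phosphorylated eIF2 blocks eIF2B, the exchange factor whose catalytic subunit is Eif2b5, so general initiation falls while a few transcripts such as Atf4 are translated more. The phosphate is removed by protein phosphatase 1 bound to a regulatory subunit, either the constitutive Ppp1r15b (CReP) or the stress-induced Ppp1r15a (GADD34).

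The region before the start of Ppp1r15a is shown because this was the only one of the 8 genes past the threshold. The sequence is from RefSeq (GRCm38.p6, the assembly of mm10), minus strand, chr7:45526269-45526518, the 250 bases that end just before the annotated start. Capitals mark TGACGTCA, the cAMP response element read by the ATF and CREB factors, and ACGTG or GCGTG, the core of the hypoxia response element, on either strand (CACGC is GCGTG on the other strand).
Ppp1r15a: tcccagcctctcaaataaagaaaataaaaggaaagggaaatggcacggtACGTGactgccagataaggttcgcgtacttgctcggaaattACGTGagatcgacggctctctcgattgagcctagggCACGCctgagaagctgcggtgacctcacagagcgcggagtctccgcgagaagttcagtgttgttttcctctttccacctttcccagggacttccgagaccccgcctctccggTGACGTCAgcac

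TGACGTCA lay 12 to 5 bases before the start. It was found in 1.55% of 32851 RefSeq mouse promoters over the same 250 bases, and in no other promoter matched to the 8 genes. The 3 hypoxia core matches are of a kind held by 38.6% of promoters (2 or more in 16.7%). The ATF4-C/EBP composite core TGATGNAA was searched on both strands of the 300 bases from 250 before to 50 after the start. It had no match in the 7 members with such a window, against 3.97% of all such windows. The interferon-stimulated response element, searched by its consensus on both strands, matched once in the windows of Ppp1r15a, Eif2s1 and Eif2ak2, against 3.44% of all windows, and in Eif2ak2 it lay 19 to 28 bases after the start. RefSeq windows were matched for 7 of the 8 members, and none was available for Ppp1r15b. A match describes letters in this window and not a bound site.

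Of the regulators of eIF2alpha phosphorylation, Ppp1r15a transcripts rose in the mutant hearts, and the other 7 genes did not pass the test. Ppp1r15a was expressed at 1.80 times the control mean, while the kinases, the constitutive phosphatase subunit, eIF2alpha and the eIF2B subunit had means between 0.78 and 1.03 times control. So 1 of 8 members was higher and 0 were lower, against 0.42% of all tested genes called higher and 0.818% called in either direction. The median log2 change of the 8 was −0.03, the same to 2 decimals as over all 13080 genes (−0.03).

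**Figure D1:**
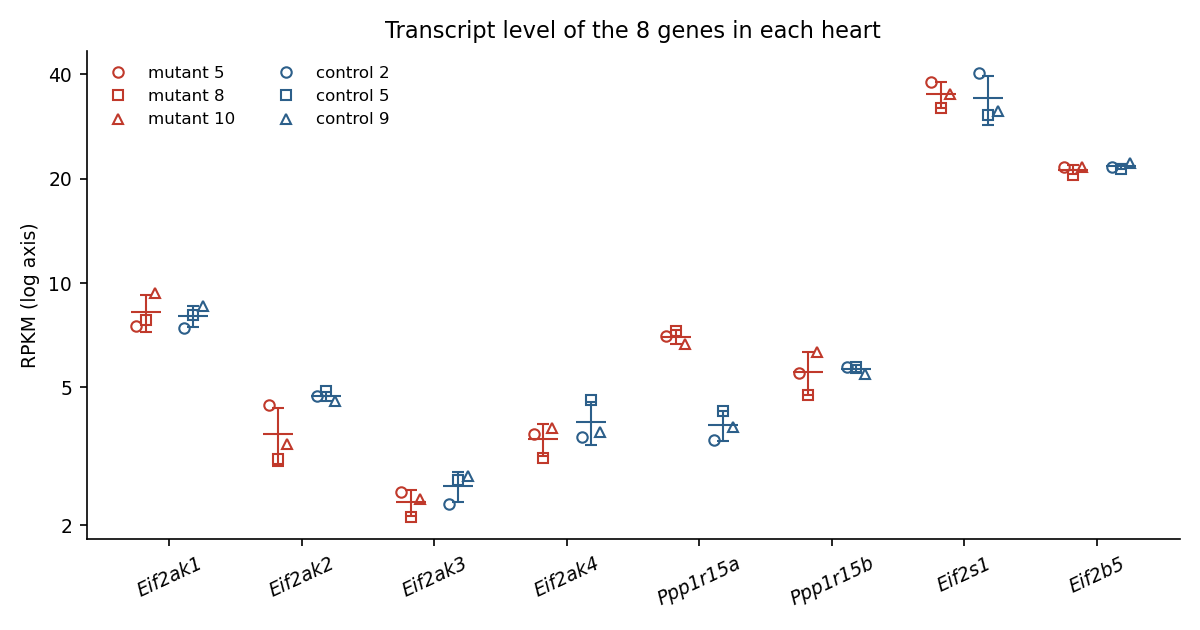
RPKM of each gene (log axis) in the 3 Hif1a mutant hearts (red, left of each pair) and the 3 control hearts (blue, right), with a horizontal line at the mean and bars of 1 SD. Ppp1r15a sits at 6.66 to 7.29 RPKM in mutant hearts, above its 3.52 to 4.28 RPKM in control hearts.

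Ppp1r15a (ENSMUSG00000040435, mm10 chromosome 7, 45522916 to 45526268, minus strand) encodes the subunit that directs phosphatase 1 to eIF2alpha during stress, in a feedback that restores translation. It measured 7.04, 7.29 and 6.66 RPKM in mutants 5, 8 and 10, and 3.52, 4.28 and 3.85 RPKM in controls 2, 5 and 9. All 3 mutant hearts lay above all 3 control hearts, with no overlap. The means were 6.99 ± 0.317 RPKM in mutant hearts and 3.88 ± 0.378 RPKM in control hearts (SD, n = 3 each). The log2 change was 0.71 ± 0.10 SE (95% interval 0.49 to 0.94, limma adjusted p = 0.012), the 52nd smallest p of 13080 genes. The depth worked out from the table implies roughly 1179 to 2673 reads behind each value and a counting SD of about 0.029 on the log2 scale, which covers counting error only. Both are approximate, since only 3 of the 7 exon identifiers listed for Ppp1r15a matched GENCODE M21 (2530 bases), while all matched for the other 7 genes. The limma call was lost without mutant 10 (log2 change 0.74, adjusted p = 0.069), without control 2 (0.66, adjusted p = 0.052), without control 9 (0.71, adjusted p = 0.060) and without both control 9 and mutant 8 (0.68, adjusted p = 0.12). Those 2 hearts were left out together because they hardly expressed chromosome Y genes. Eif2s3y, which encodes a Y-linked form of the eIF2 gamma subunit, measured 0.037 RPKM in mutant 8 and 0.0053 RPKM in control 9, against 18.8 to 27.7 RPKM in the other 4 hearts, so each genotype mixes hearts with and without Y-linked expression.

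Ppp1r15b (ENSMUSG00000046062, chromosome 1, 133131143 to 133139783, plus strand), the subunit that keeps eIF2alpha phosphorylation low in unstressed cells, measured 5.51, 4.76 and 6.32 RPKM in mutants 5, 8 and 10, and 5.73, 5.72 and 5.48 RPKM in controls 2, 5 and 9. The mutant hearts spread on both sides of the closely grouped control hearts. The log2 change was −0.03 (95% interval −0.28 to 0.22, limma adjusted p = 0.94), so the interval does not reach the change of Ppp1r15a. Ppp1r15b shares 640 of its 5594 exon bases with Gm26616, a gene on the opposite strand without a deposited value. The labels do not state whether counting used the strand, so reads of this pair cannot be told apart.

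Within each heart the order of these subunits differed by genotype. Ppp1r15a exceeded Ppp1r15b in all mutant hearts, at 1.28, 1.53 and 1.05 times Ppp1r15b in mutants 5, 8 and 10. It was below Ppp1r15b in all control hearts, at 0.615, 0.748 and 0.702 times in controls 2, 5 and 9. On the log2(RPKM + 1) scale the ratio differed by 0.74 between mutant and control hearts (exact two-sided permutation p = 0.1, the smallest that 3 hearts against 3 allow). The summed RPKM of both subunits was 12.6, 12.1 and 13.0 in mutants 5, 8 and 10 and 9.26, 10.0 and 9.33 in controls 2, 5 and 9. Ppp1r15a made up 56.0% ± 4.59 of that sum in mutant hearts and 40.7% ± 2.41 in control hearts (SD, n = 3 each).

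**Figure D2:**
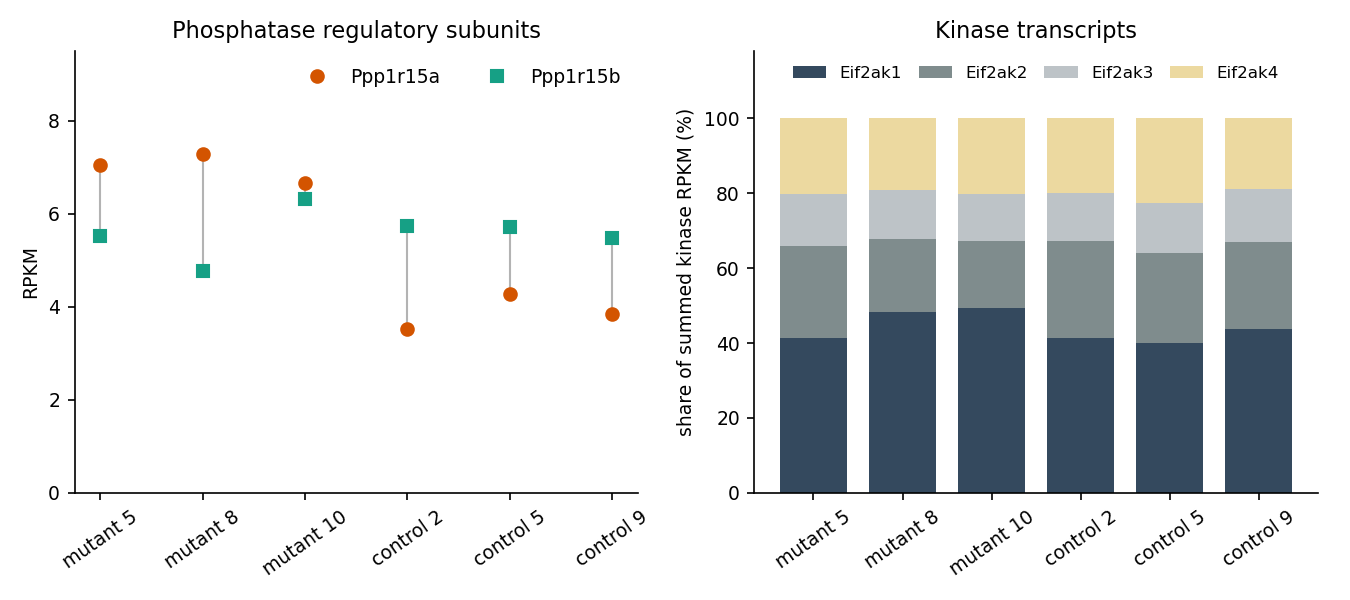
Left, RPKM of Ppp1r15a (circles) and Ppp1r15b (squares) in each heart, mutant hearts first, joined by a line within the heart. Right, the share of each kinase in the summed RPKM of the 4 kinases in each heart. Ppp1r15a lies above Ppp1r15b in the 3 mutant hearts and below it in the 3 control hearts, and Eif2ak1 holds the largest share of kinase transcripts in all 6 hearts.

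None of the 4 kinases passed the test. Eif2ak2 (ENSMUSG00000024079, chromosome 17, 78852564 to 78882573, minus strand) had the largest difference among them. It measured 4.46, 3.11 and 3.43 RPKM in mutants 5, 8 and 10 and 4.71, 4.87 and 4.57 RPKM in controls 2, 5 and 9. The mutant hearts were all below the control hearts, mutant 5 by little. Of the 8 members, 2 were separated by genotype, Ppp1r15a with higher and Eif2ak2 with lower values in mutant hearts, against 17.0% of all tested genes (7.6% higher, 9.43% lower). The means were 3.67 ± 0.704 RPKM in mutant hearts and 4.71 ± 0.150 RPKM in control hearts (SD, n = 3 each), with a log2 change of −0.30 (95% interval −0.57 to −0.03, limma unadjusted p = 0.033, adjusted p = 0.40). An unadjusted p under 0.05 was reached by 11.2% of all tested genes.

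The interferon-induced genes, among which Eif2ak2 is counted in immune responses, showed no call, against 0.818% of all tested genes called in either direction. Of 12 listed, 7 were in the table and 5 could be tested, of which 1 had a positive and 4 a negative log2 change (median −0.05, against −0.03 over all tested genes). The membrane protein gene Bst2 measured 8.64 RPKM in mutant and 6.63 RPKM in control hearts (limma adjusted p = 0.50), and the RNA sensor gene Ddx58 1.31 and 1.65 RPKM (adjusted p = 0.54). Eif2ak2 shares 174 exon bases with a lincRNA gene on the opposite strand (ENSMUSG00000097567), which measured 1.27 RPKM in mutant and 1.13 RPKM in control hearts. Whether counting used the strand is not stated in the labels, so the reads of the pair cannot be told apart.

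Markers of other cell types are given beside these results, and none passed the limma threshold, which 0.818% of all tested genes did. The groups did not overlap for 6 of 7 macrophage, 2 of 7 epicardial and mesenchymal, 2 of 6 cardiomyocyte, 2 of 6 endothelial and 1 of 2 neural markers, against 17.0% of all tested genes. All 7 macrophage markers had negative log2 changes (median −0.62), with a summed level of 7.57 to 18.8 RPKM in mutant and 23.7 to 27.3 RPKM in control hearts. All 7 epicardial and mesenchymal markers did too (median −0.32), with sums of 163 to 240 RPKM in mutant and 280 to 308 RPKM in control hearts. No measured marker was at 0. Their part in either result was not tested, and in whole hearts fewer cells of a type and less RNA per cell cannot be told apart. The 6 cardiomyocyte markers (Tnnt2, Myh6, Myh7, Actc1, Myl7 and Nkx2-5) were expressed in every heart, from 14.8 RPKM for Nkx2-5 in control 2 to 5048 RPKM for Actc1 in mutant 10. Of their log2 changes 4 were positive and 2 negative, from −0.05 to 0.42 (median 0.21). Myl7 (0.42) and Actc1 (0.27) were the 2 whose mutant hearts all lay above the control hearts. The median log2 change was −0.17 for the 6 endothelial markers and 0.26 for the 2 neural markers that could be tested.

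Eif2ak1 (ENSMUSG00000029613, chromosome 5, 143817788 to 143904251, plus strand) was the most abundant kinase transcript. It measured 7.51, 7.82 and 9.36 RPKM in mutants 5, 8 and 10, and 7.44, 8.09 and 8.56 RPKM in controls 2, 5 and 9, so the groups overlapped (log2 change 0.03, 95% interval −0.22 to 0.27, limma adjusted p = 0.94). This kinase is best known in red cell precursors, where it matches globin synthesis to haem. The median erythroid marker, on the log2 scale against the control mean, was −0.40, 0.18 and 0.60 in mutants 5, 8 and 10 and 0.07, −0.12 and 0.05 in controls 2, 5 and 9. The order of the mutant hearts by this median was that of their Eif2ak1 levels, while among control hearts control 2 had the highest median and the lowest Eif2ak1. The summed erythroid level was 11719, 21063 and 13676 RPKM in mutants 5, 8 and 10 and 13962 to 16572 RPKM in control hearts. The part of red cells in the Eif2ak1 level was not tested. Of 13 erythroid markers 10 were in the table, and none of the 9 tested passed. Eif2ak1 shares 487 exon bases with Aimp2 and 172 with Ankrd61, both on the opposite strand and neither past the threshold.

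Eif2ak4 (ENSMUSG00000005102, chromosome 2, 118388618 to 118475234, plus strand), the kinase activated by uncharged tRNA, measured 3.67, 3.12 and 3.83 RPKM in mutants 5, 8 and 10 and 3.59, 4.61 and 3.71 RPKM in controls 2, 5 and 9. The groups overlapped, and control 5 was the highest heart. The log2 change was −0.13 (95% interval −0.39 to 0.13, limma adjusted p = 0.71). Eif2ak3 (ENSMUSG00000031668, chromosome 6, 70844515 to 70905245, plus strand), the kinase of the unfolded protein response, was the lowest of the 8 transcripts. It had 2.50, 2.11 and 2.38 RPKM in mutants 5, 8 and 10 and 2.31, 2.70 and 2.78 RPKM in controls 2, 5 and 9, again with overlap (log2 change −0.11, 95% interval −0.34 to 0.12, limma adjusted p = 0.72). Eif2ak3 shares 485 of its 6026 exon bases with Gm43292, on the opposite strand and without a deposited value. Whether counting used the strand is not stated for this pair either.

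The summed level of the 4 kinases was 18.1, 16.2 and 19.0 RPKM in mutants 5, 8 and 10 and 18.04, 20.3 and 19.6 RPKM in controls 2, 5 and 9 (exact two-sided permutation p = 0.3). Eif2ak1 made up 46.3% ± 4.31 of this sum in mutant and 41.6% ± 1.89 in control hearts (SD, n = 3 each; exact permutation p = 0.2). Eif2ak2 made up 20.6% ± 3.47 in mutant and 24.5% ± 1.47 in control hearts (exact permutation p = 0.3). Mutants 8 and 10 had Eif2ak2 shares of 19.3% and 18.1%, below the control hearts, while mutant 5 (24.6%) lay among them. The ratio of Ppp1r15a to the summed kinases was 0.388, 0.451 and 0.350 in mutants 5, 8 and 10 and 0.195, 0.211 and 0.196 in controls 2, 5 and 9 (exact permutation p = 0.1). None of these comparisons could fall below 0.1, and they were not adjusted for their number.

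The target and the exchange factor were the most abundant of the 8 transcripts. Eif2s1 (ENSMUSG00000021116, chromosome 12, 78861819 to 78887010, plus strand) measured 38.0, 31.9 and 35.1 RPKM in mutants 5, 8 and 10 and 40.4, 30.5 and 31.4 RPKM in controls 2, 5 and 9. The mutant values lay inside the control range (log2 change 0.04, 95% interval −0.24 to 0.33, limma adjusted p = 0.92). Eif2s1 starts 4914288 bases past the end of the targeted gene Hif1a. Hif1a itself was not lower in mutant hearts, at 75.7, 55.0 and 77.7 RPKM in mutants 5, 8 and 10 against 61.2, 46.4 and 46.4 RPKM in controls 2, 5 and 9 (limma adjusted p = 0.36). Of its 5896 exon bases it shares 330 with Gm15283, on the opposite strand, and 148 with Gm49321, on the same strand and without a deposited value. Gm15283 measured 18.2 RPKM in mutant and 15.5 RPKM in control hearts (limma adjusted p = 0.40). Of 16 alternative settings Hif1a passed the threshold in 1, without control 2 and mutant 8 (log2 change 0.71, limma adjusted p = 0.013). In the other 15 its log2 change was 0.34 to 0.58 (limma adjusted p 0.14 to 0.73). The labels do not say which exons the null and recombined alleles lack, so the Hif1a level does not check the deletion.

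Eif2b5 (ENSMUSG00000003235, chromosome 16, 20498817 to 20509323, plus strand) varied least among the 8. It measured 21.6, 20.6 and 21.6 RPKM in mutants 5, 8 and 10 and 21.7, 21.3 and 22.1 RPKM in controls 2, 5 and 9. All 6 hearts lay within 0.10 on the log2 scale, against 0.87 for Ppp1r15a and 0.51 for Eif2ak2. The log2 change was −0.03 (95% interval −0.22 to 0.16, limma adjusted p = 0.91).

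**Figure D3:**
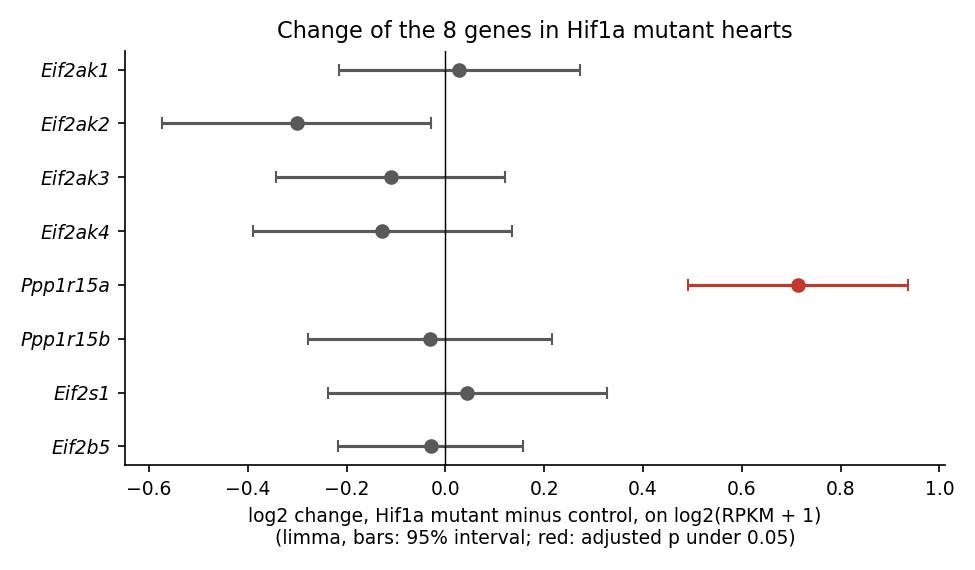
Log2 change of each gene, Hif1a mutant minus control, with its 95% interval from limma (red, adjusted p under 0.05). Only Ppp1r15a is past the threshold, at 0.71 (0.49 to 0.94), and of the other intervals only that of Eif2ak2 (−0.57 to −0.03) lies wholly on one side of 0.

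By level, the 8 transcripts ran in mutant hearts from Eif2s1 through Eif2b5, Eif2ak1, Ppp1r15a, Ppp1r15b, Eif2ak2 and Eif2ak4 to Eif2ak3. In control hearts Ppp1r15a stood 3 places lower, between Eif2ak4 and Eif2ak3, and the other 7 genes kept their order. Neighbours in the order had separate ranges, except Eif2ak2 and Eif2ak4, which overlapped in both genotypes, and Eif2ak4 and Ppp1r15a, which overlapped in control hearts (3.59 to 4.61 and 3.52 to 4.28 RPKM).

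The partners of these proteins were listed separately. Of 10 further subunits and cofactors of eIF2 and eIF2B, none passed (7 positive and 3 negative, median log2 change 0.03). Those with the smallest p were Eif2b4, the delta subunit of eIF2B, at 20.1 ± 1.93 RPKM in mutant and 16.4 ± 1.18 RPKM in control hearts (SD, n = 3 each; limma adjusted p = 0.34), and Eif2s2, the beta subunit of eIF2, at 40.2 ± 2.84 and 33.0 ± 6.92 RPKM (adjusted p = 0.48). None of 10 regulators of the kinases passed (median 0.04). Tarbp2, an RNA-binding inhibitor of PKR, measured 21.4 RPKM in mutant and 18.2 RPKM in control hearts (limma adjusted p = 0.40), and the chaperone Hsp90ab1 780 and 709 RPKM (adjusted p = 0.75). None of 5 phosphatase partners passed (median −0.07). The catalytic subunit Ppp1cc measured 65.7 RPKM in mutant and 73.8 RPKM in control hearts (limma adjusted p = 0.56), and Ppp1ca 218 and 192 RPKM (adjusted p = 0.59). Of all tested genes only 0.818% passed, so lists this short would often hold no call. In each of these lists the genotypes did not overlap for 1 gene (Eif2b4, Tarbp2 and Ppp1cc), against 17.0% of all tested genes.

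Of genes listed as responding to eIF2alpha phosphorylation, most of those tested had higher transcript levels in the mutant hearts. These data hold transcript levels only, so neither eIF2alpha phosphorylation nor the translation of Atf4 was measured. Of 15 listed, 14 could be tested. Chac1 and Nupr1 were among them only because they reached 1 RPKM in the mutant hearts, and both lay below it in every control heart, so they are left out of the counts. Of the other 12, 8 were higher in the mutant hearts and none lower, against 0.42% called higher and 0.398% called lower of all tested genes. The median log2 change of these 12 was 0.86, against −0.03 over all tested genes. This list was chosen with the rise of ATF4 targets in these hearts already known, so its count is a description. Atf4, the transcription factor whose translation rises when eIF2alpha is phosphorylated, measured 56.5, 62.3 and 57.1 RPKM in mutants 5, 8 and 10 and 29.5, 33.5 and 29.7 RPKM in controls 2, 5 and 9 (log2 change 0.90 ± 0.09 SE, limma adjusted p = 0.0028). The related factor Atf5 had 11.4, 16.8 and 15.8 RPKM in the mutant hearts and 3.94, 4.80 and 5.38 RPKM in the control hearts. In both genes the genotypes did not overlap. Asns, Trib3, Ddit3, Mthfd2, Cebpb and Sesn2 rose too, with log2 changes between 0.72 and 2.58. Cebpb lost its limma call without mutant 8, mutant 10, control 2, control 5, or control 2 and mutant 8 together (adjusted p 0.056 to 0.12), with log2 changes of 0.72 to 0.81 there. Sesn2 lost it without mutant 10, control 2, control 5, control 9, or either pair of hearts (adjusted p 0.053 to 0.13), with log2 changes of 0.61 to 0.75. Chac1, a glutathione-degrading enzyme, had 3.54, 4.01 and 2.71 RPKM in mutants 5, 8 and 10 and 0.158, 0.159 and 0.335 RPKM in controls 2, 5 and 9, and with any mutant heart left out neither it nor Nupr1 passed the filter to be tested.

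Of the 8 response genes past the threshold apart from Chac1 and Nupr1, Asns and Mthfd2 had their highest value in mutant 10. The others, and Ppp1r15a, had it in mutant 8. Genes whose mutant hearts all lie above the control hearts must peak in a mutant heart, so this only ranks the mutant hearts. The share of all tested genes highest in mutant 8 was not worked out. Mutant 8 also stood at an end of the first principal component over all tested genes (45.3% of the variance), with control 2 at the other end. The summed level of 27 copies of 5S ribosomal RNA genes was 29.8, 184 and 111 RPKM in mutants 5, 8 and 10 and 10.2, 30.3 and 69.6 RPKM in controls 2, 5 and 9, likewise highest in mutant 8 and lowest in control 2. Its part in these results was not tested. Without mutant 8 and control 2 Ppp1r15a had a log2 change of 0.63 (limma adjusted p = 0.048).

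**Figure D4:**
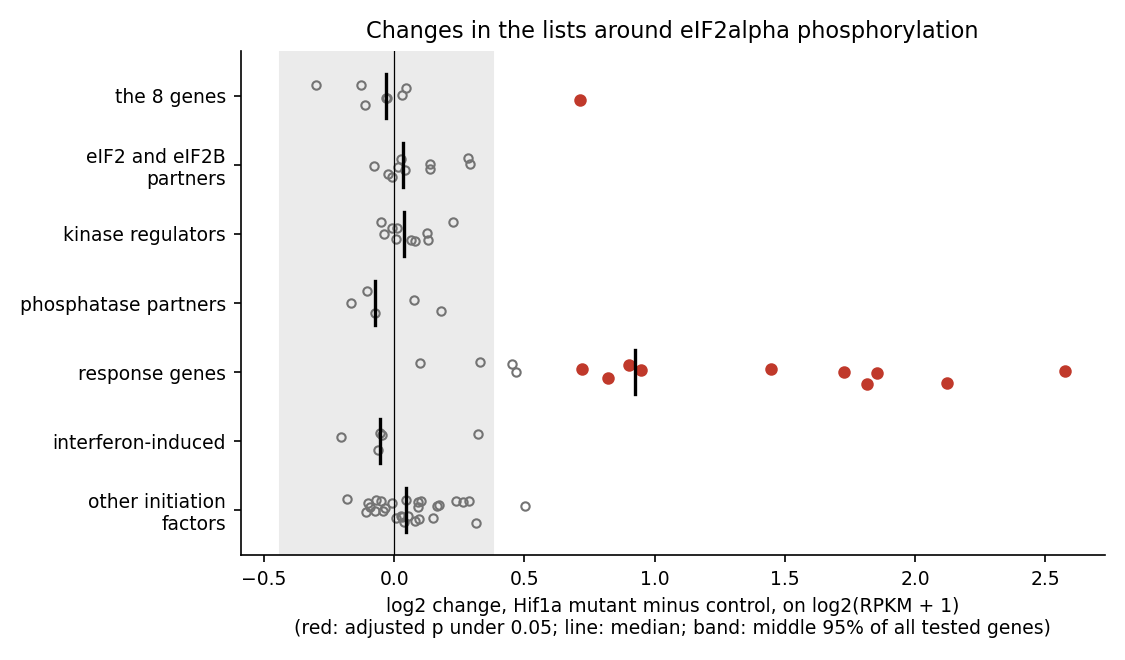
Log2 change of each tested gene, Hif1a mutant minus control, for the 8 genes and 6 surrounding lists (red, limma adjusted p under 0.05; black line, list median; grey band, the middle 95% of all 13080 genes, −0.44 to 0.38). The called genes are Ppp1r15a and 10 response genes (Chac1 and Nupr1 passed the filter only through the mutant hearts), and the medians of the other lists lie between −0.07 and 0.05.

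Profiles over the 6 hearts were compared for the 2 members with the widest range, by the root mean square difference of log2(RPKM + 1) after centring each gene on its mean. The nearest to Ppp1r15a were Slc3a2 (0.062), the heavy chain of several amino acid exchangers, Angptl6 (0.071) and Bdh1 (0.071), a ketone body enzyme, against 0.36 for the deviation of Ppp1r15a itself. Slc3a2 measured 26.4, 27.6 and 24.9 RPKM in mutants 5, 8 and 10 and 14.8, 15.2 and 15.6 RPKM in controls 2, 5 and 9, with mutant 8 highest as for Ppp1r15a. The nearest to Eif2ak2 were Ccng2 (0.030), Hilpda (0.032), which encodes a lipid droplet protein, and Tmtc2 (0.042), against 0.20 for Eif2ak2 itself. Hilpda measured 5.48, 3.94 and 4.36 RPKM in mutants 5, 8 and 10 and 5.54, 5.70 and 5.65 RPKM in controls 2, 5 and 9. These 6 hearts share their genotype contrast with the test above, so likeness is a description without a test.

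**Figure D5:**
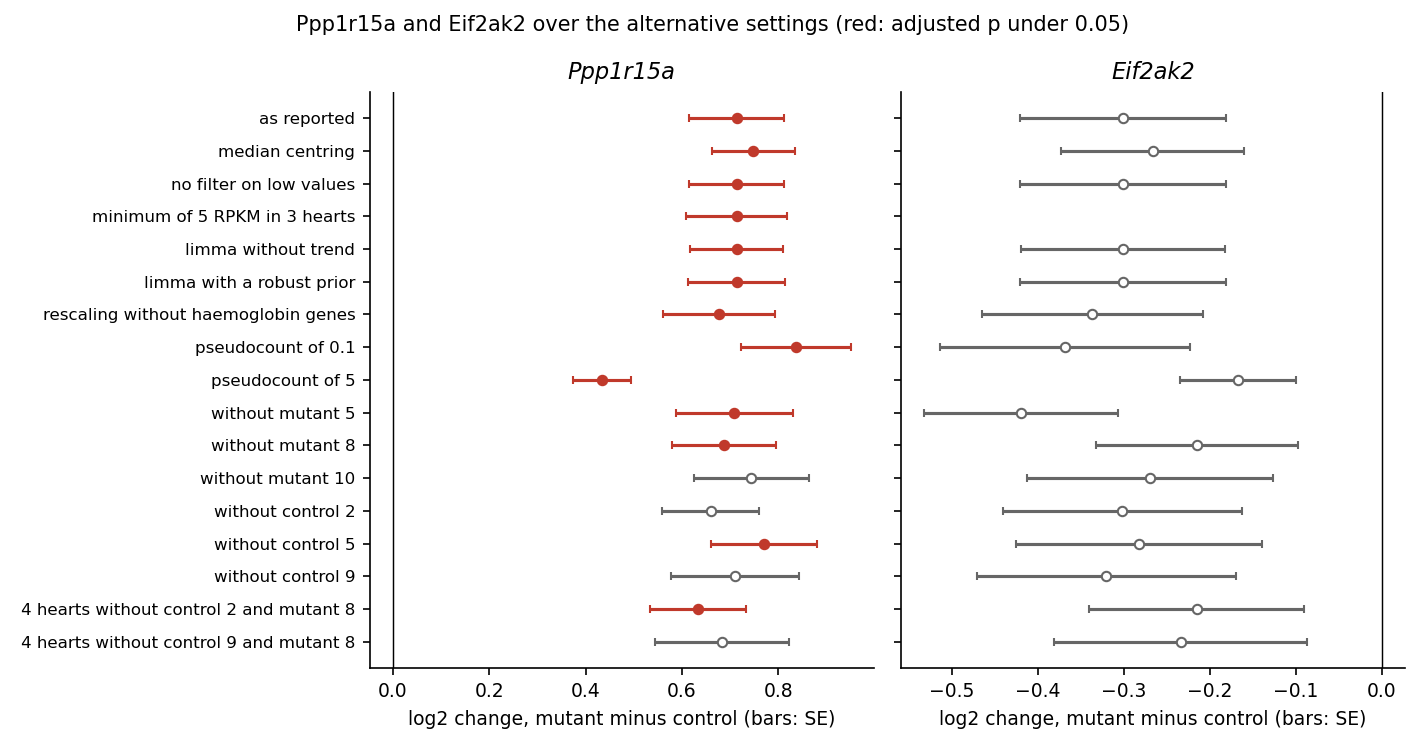
Log2 change of Ppp1r15a (left) and Eif2ak2 (right), Hif1a mutant minus control, with SE, as reported and under each alternative setting (red, limma adjusted p under 0.05). Ppp1r15a stays between 0.43 and 0.84 and is past the threshold in 12 of 16 alternatives, and Eif2ak2 stays between −0.42 and −0.17 and is past it in none of 15.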

How the data were processed

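The deposited table holds RPKM values made by the authors, 1 column per heart, over the constitutive exons that the file header lists for each gene. The submitters' processing notes name Trim Galore, TopHat2 and mm10. Neither these notes nor the labels name the gene counter, the annotation or the strand setting. The header names no unit, and RPKM was taken from the values. In genes with a single exon, low values were multiplied by the exon length less 1 base. For the best-fitting of the steps tried in each heart, 87.6% to 94.7% of these products fell within 0.1 of whole multiples. The median over all steps tried was 19.0% to 20.6%. The best-fitting steps imply 100800000 (mutant 8) to 158700000 (mutant 10) reads. No value was 0 and no libraries were identical. Every deposited gene had a geometric mean of at least 0.5 RPKM in 1 genotype or both, so genes low in both are absent. The setting without a filter still rests on that selection.

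The test was limma 3.58.1 (R 4.3.3), trended and two-sided, on log2(RPKM + 1) without covariates. A gene entered if 3 or more hearts reached 1 RPKM, which left 13080 genes and 2038 not tested. The fit was run on simulated data in which each gene had independent noise. Those data hold no differences shared by many genes within a heart, so they do not check error rates for these hearts. Ratios within hearts used exact permutation tests (scipy 1.17.1). Coordinates come from GENCODE M21 (mm10).

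The members and lists were chosen with earlier results of these data known. Named were all 8 members, Hif1a, and in each list the genes past the threshold or else the 2 with the smallest p. Genes named for a shared exon and the cardiomyocyte markers at the extremes were chosen after their values were seen. Alternatives were median centring, no filter, a minimum of 5 RPKM, no trend, a robust prior, rescaling without haemoglobin genes, pseudocounts of 0.1 and 5, leaving out each heart, and 2 sets of 4 hearts.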

Additional observations from a re-analysis of the deposited data

How the results depend on the processing

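No paired analysis was possible because the genotypes share only 1 heart number. Leaving out single hearts gave 40 to 198 genes past the threshold in limma, against 107 in all hearts (198 without mutant 5, 40 without mutant 10, 52 without control 2, 43 without control 5, 67 without control 9), and 53 in the 4 hearts without control 9 and mutant 8. The number of the 8 members past it ranged from 0 to 1 when single hearts were left out, and was 0 without control 9 and mutant 8, with 1 member at an unadjusted p under 0.05 in each setting with a count of 0. Ppp1r15a kept its direction in all 16 settings (limma adjusted p 0.0079 to 0.12). Its log2 ratio to Ppp1r15b differed by 0.45 with a pseudocount of 5, which shrinks changes of low genes by construction. Eif2ak1, Ppp1r15b, Eif2s1 and Eif2b5, never past the threshold, changed sign in 3, 4, 3 and 2 settings. Higher genes were 51.4% of all calls (55 higher, 52 lower), 62.6% after median centring (57 and 34) and 40.6% after rescaling without haemoglobin genes (54 and 79). Over 29 named genes 428 of 446 values kept their side of the threshold, 15 lost a call and 3 gained one.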

Other observations

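Initiation factors outside eIF2 were measured as a further list. None of the 29 passed the limma threshold over all genes, against 0.818% of all tested genes. Log2 changes were positive in 19 and negative in 10 (median 0.05). In 7 the genotypes did not overlap, against 17.0% of all tested genes. Eif4ebp1, an inhibitor of the cap-binding factor eIF4E, had the smallest p. It measured 114, 135 and 117 RPKM in mutants 5, 8 and 10 and 82.1, 84.4 and 90.4 RPKM in controls 2, 5 and 9 (log2 change 0.50 ± 0.10 SE, limma adjusted p = 0.063, 0.044 to 0.29 over 16 alternative settings). All 3 mutant hearts lay above the control hearts. Eif3d, a subunit of the eIF3 complex, followed at 47.8, 54.1 and 54.6 RPKM in mutants 5, 8 and 10 and 40.1, 41.7 and 45.7 RPKM in controls 2, 5 and 9 (log2 change 0.29, limma adjusted p = 0.31).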
